A study of Mus musculus with 8 samples.

Results

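Intraepithelial lymphocytes are T cells that sit between the epithelial cells of the gut, and isolated crypts can carry some of them along. Their transcripts were followed here through 10 genes, *Ptprc*, *Cd3e*, *Cd3g*, *Cd8a*, *Gzma*, *Gzmb*, *Itgae*, *Ccl5*, *Cd7* and *Cd160*, taken as a given list of mouse symbols and matched to the Ensembl identifiers of the count tables. They are 10 of 45706 genes counted, and all 10 were among the 14491 genes that passed the filter on low counts. RNA-Seq had been performed on crypts freshly isolated with EDTA from 2 parts of the gut of the same 4 donor mice, the small intestine (SI) and the colon (COL). The mice were wild type of strain C57BL/6N, with no transgene or treatment, and their age is not given in the sources used here. Mice 1 and 5 were female and gave SI1, COL1, SI4 and COL4, and mice 2 and 3 were male and gave SI2, COL2, SI3 and COL3. The study's methods describe crypt isolation for organoid cultures, with villi scraped off the proximal SI, the colon kept longer and in more EDTA, and no step that sorts or removes lymphocytes. Whether the RNA-Seq crypts were prepared in just this way is not given in the sources used here.

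Most intraepithelial lymphocytes are CD8-positive, carry an alpha-beta or gamma-delta T cell receptor and store granzymes. They enter the epithelium through integrins and chemokine receptors, are held there by the binding of integrin alpha E beta 7 to E-cadherin on epithelial cells, and receive signals such as interleukin-15 from them. They are known to be more abundant in the epithelium of the SI than in that of the colon, and within the SI they are found mainly between villus enterocytes.

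All 10 transcripts were higher in SI than in COL crypts in each of the 4 mice, which held for 25.0% of all genes tested. The difference passed the test for 7 of the 10, and 15.5% of all genes tested were called higher in SI. The granzyme genes *Gzma* and *Gzmb* differed most, by 23.4-fold and 10.1-fold, and *Ptprc*, the pan-leukocyte marker, differed least, by 1.95-fold. The median log2 fold change of SI over COL was 2.33 over the 10 genes and -0.09 over all genes tested. By edgeR, 0 members were called higher in COL, where 12.9% of all genes were, and none had an unadjusted p under 0.05 in that direction by edgeR, limma-voom or DESeq2. In bulk crypts, fewer lymphocytes and less of a transcript in each lymphocyte cannot be told apart.

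The promoters of *Cd3e*, *Gzma* and *Gzmb* are shown because *Cd3e* is the T cell reference used below and because the granzyme genes moved most. They are the 250 bases before the RefSeq gene start in GRCm38.p6, printed 5′ to 3′ on the strand of the gene. The *Gzma* window lies at chr13:113100982-113101231, the *Gzmb* window at chr14:56262335-56262584 and the *Cd3e* window at chr9:45009612-45009861, all on the minus strand, and the last bases of the *Cd3e* window lie within the GENCODE gene. The *Gzmb* window ends short of the GENCODE gene, whose start is at base 56262260. Distances are counted from the RefSeq starts. Capitals mark the RUNX core motif TGTGGT in the granzyme promoters and the ETS core motif AGGAAGT in that of *Cd3e*, on either strand, so that ACCACA and ACTTCCT are the same motifs read from the other strand.
Gzma: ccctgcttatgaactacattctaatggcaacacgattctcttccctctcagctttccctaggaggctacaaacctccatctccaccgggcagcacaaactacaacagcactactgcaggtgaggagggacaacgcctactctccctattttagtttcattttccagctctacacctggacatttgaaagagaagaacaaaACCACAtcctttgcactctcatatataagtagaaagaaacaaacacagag
Gzmb: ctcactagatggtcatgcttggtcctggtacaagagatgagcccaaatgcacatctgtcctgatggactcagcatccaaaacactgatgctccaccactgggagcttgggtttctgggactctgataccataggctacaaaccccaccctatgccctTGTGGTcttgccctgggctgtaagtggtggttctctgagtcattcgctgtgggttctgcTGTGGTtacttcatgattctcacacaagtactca
Cd3e: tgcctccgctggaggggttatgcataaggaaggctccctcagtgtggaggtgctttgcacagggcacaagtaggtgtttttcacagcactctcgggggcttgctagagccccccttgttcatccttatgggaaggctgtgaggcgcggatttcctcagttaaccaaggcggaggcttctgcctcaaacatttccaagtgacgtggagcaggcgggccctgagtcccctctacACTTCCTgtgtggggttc

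The RUNX motif began 50 bases before the RefSeq start of *Gzma* and 93 and 34 bases before that of *Gzmb*. The ETS motif began 18 bases before the RefSeq start of *Cd3e*. The promoter table held 9 windows for 7 of the 10 members, since *Ptprc* and *Cd160* have 2 windows each. Among those 7 genes, the RUNX motif also occurred in *Cd160*, and 14.0% of all 32851 windows of this length hold it. The ETS motif also occurred in *Ptprc* (7.69% of all windows), the GATA motif AGATAA in *Cd3g* and *Ptprc* (9.99%), and the T-box motif GGTGTGA in *Cd160* (3.33%). The E-box CANNTG was present in all 7 genes and in 66.2% of all windows. The window of *Cd8a* held the E-box and none of the other motifs searched. These matches describe letters in the windows and are no evidence of binding.

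Libraries held 15969428 (COL2) to 32908060 (COL4) counts in all. Levels are given as CPM, the counts for each 1000000 of the TMM-scaled library total, and the TMM factors were 0.727 to 0.798 in SI and 1.01 to 1.45 in COL. The share of mitochondrial transcripts was 4.83 to 7.35% in 4 libraries, namely SI1, SI4, COL3 and COL4. It was 22.7 to 50.8% in the other four, of which SI2 and SI3 belong to the SI. Within the SI, the split was also that of the sexes, with both females low and both males high, so that mitochondrial share and sex cannot be told apart there. In COL each sex had 1 library on either side. For all 10 genes, both SI1 and SI4 lay above both SI2 and SI3. Among the COL libraries COL4 was the highest for all 10 genes, and many results are also given without it. The shares of all genes tested with these orders are not given here, so neither order is read as particular to the members. The correlations and the TPM levels use all 8 libraries.

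**Figure D1:**
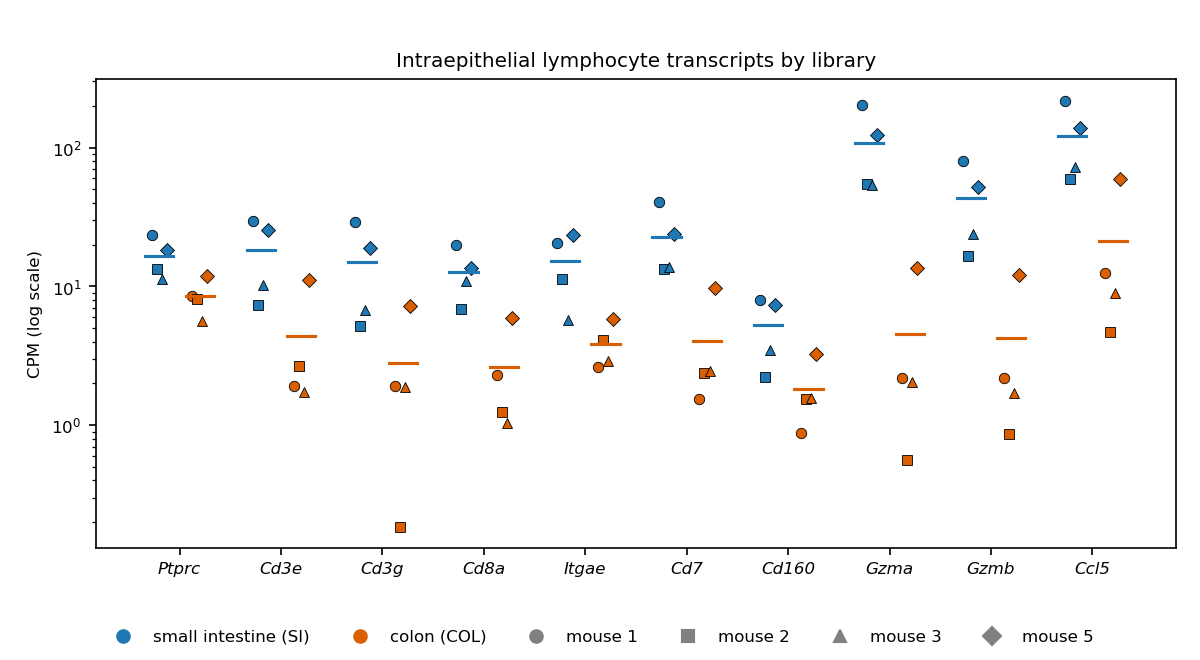
CPM (log axis) of the 10 transcripts in each library, with SI in blue, COL in orange, a symbol for each donor mouse and a bar at the mean of 4 libraries. SI1 and SI4 lie above SI2 and SI3 for every gene, and COL4 (diamond) lies above the other 3 COL libraries, overlapping the range of SI for 6 of the 10 genes.

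The leukocyte marker *Ptprc* (CD45, a receptor tyrosine phosphatase of all nucleated blood cells; ENSMUSG00000026395, chr1:138062861-138175708, minus strand) had 23.6, 13.4, 11.3 and 18.3 CPM in SI1 to SI4 and 8.48, 8.08, 5.67 and 12.0 CPM in COL1 to COL4. COL4 lay above the lowest SI library, and the other COL libraries lay below all of SI. The log2 fold change was 0.96 ± 0.33 (SE) and missed the threshold, with an adjusted p of 0.0516 (edgeR quasi-likelihood test, Benjamini-Hochberg). In a fit blocked by donor mouse the adjusted p was 0.0430, and without COL4 it was 0.0378. It was also under the threshold without SI2 (0.0484) or SI3 (0.0394). *Ptprc* overlaps the non-coding gene A130071D04Rik on the same strand, and no 50-base stretch of its longest transcript occurs in another gene.

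T cell identity was followed by the CD3 chains and by *Cd8a*. *Cd3e* (ENSMUSG00000032093, chr9:44998740-45009627, minus strand) encodes the epsilon chain of the CD3 complex, which carries the signal of the T cell receptor. Its level was 29.9, 7.37, 10.2 and 25.3 CPM in SI1 to SI4 and 1.91, 2.67, 1.74 and 11.2 CPM in COL1 to COL4. COL4 alone reached into the SI range, at 61.4% of the SI mean and 5.30 times the mean of COL1 to COL3. Its log2 fold change was 2.05 ± 0.67 (SE), with an adjusted p of 0.0403 (edgeR quasi-likelihood test, Benjamini-Hochberg). Without COL4 the log2 fold change was 3.13. Leaving out any 1 of SI1, SI4, COL1, COL2 and COL3 took the adjusted p above the threshold, to between 0.0779 and 0.114.

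*Cd3g*, the gamma chain of the same complex (ENSMUSG00000002033, chr9:44969572-44980431, minus strand), lies 18308 bases from *Cd3e*. It had 29.3, 5.20, 6.74 and 18.9 CPM in SI1 to SI4 and 1.91, 0.186, 1.87 and 7.20 CPM in COL1 to COL4. COL2 stood far below every other library with 3 counts, and COL4 lay above SI2 and SI3. The log2 fold change of 2.40 ± 0.83 (SE) missed the threshold with an adjusted p of 0.0511 (edgeR quasi-likelihood test, Benjamini-Hochberg). In the fit blocked by donor mouse it was 0.00763. Without SI2 it was 0.0341 and without COL4 0.0108.

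*Cd8a* (ENSMUSG00000053977, chr6:71373427-71379173, plus strand) encodes the CD8 alpha chain, which forms the alpha-alpha homodimer typical of many intraepithelial lymphocytes. It had 19.8, 6.89, 10.9 and 13.5 CPM in SI1 to SI4 and 2.29, 1.24, 1.04 and 5.95 CPM in COL1 to COL4. Every SI library lay above every COL library, although COL4 came close to SI2. SI exceeded COL by a log2 fold change of 2.26 ± 0.57 (SE), with an adjusted p of 0.0120 (edgeR quasi-likelihood test, Benjamini-Hochberg), and the call held when any 1 library was left out.

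The cytotoxic granule genes showed the widest differences. *Gzma* (ENSMUSG00000023132, chr13:113093825-113100981, minus strand) encodes granzyme A, a tryptase-like serine protease released into target cells. It had 201, 54.9, 54.0 and 124 CPM in SI1 to SI4 and 2.20, 0.559, 2.03 and 13.5 CPM in COL1 to COL4. The lowest SI library lay well above COL4, and COL2 was the lowest of all with 9 counts. The log2 fold change was 4.55 ± 0.89 (SE), with an adjusted p of 0.00273 (edgeR quasi-likelihood test, Benjamini-Hochberg). Without COL4 it was 6.05.

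*Gzmb* (ENSMUSG00000015437, chr14:56258838-56262260, minus strand) encodes granzyme B, which cleaves caspases and other substrates in the target cell. Its level was 80.7, 16.5, 24.0 and 52.1 CPM in SI1 to SI4 and 2.20, 0.870, 1.71 and 12.2 CPM in COL1 to COL4. The tissues did not overlap, with COL4 just under SI2. Its log2 fold change was 3.33 ± 0.80 (SE), with an adjusted p of 0.00933 (edgeR quasi-likelihood test, Benjamini-Hochberg). It was 4.75 without COL4, and both granzyme genes were called with any 1 library left out.

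*Ccl5* (ENSMUSG00000035042, chr11:83525778-83530518, minus strand) encodes the chemokine RANTES, which effector T cells and NK cells make in large amounts. Its CPM was 219, 59.5, 72.0 and 138 in SI1 to SI4 and 12.4, 4.66, 9.04 and 59.5 in COL1 to COL4. COL4 reached the level of SI2, and the other COL libraries stayed well below. SI exceeded COL by a log2 fold change of 2.51 ± 0.74 (SE), with an adjusted p of 0.0258 (edgeR quasi-likelihood test, Benjamini-Hochberg). Without COL4 it was 3.81. The call was lost without SI1 (0.0718), COL1 (0.0855) or COL3 (0.0632).

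Residency and surface receptors made up the rest of the list. *Itgae* (ENSMUSG00000005947, chr11:73090583-73147446, plus strand) encodes CD103, the integrin alpha E chain that binds E-cadherin, and some dendritic cells express it too. It had 20.7, 11.2, 5.78 and 23.4 CPM in SI1 to SI4 and 2.64, 4.10, 2.89 and 5.86 CPM in COL1 to COL4. SI3 and COL4 were nearly level, and the other SI libraries lay above all of COL. The log2 fold change was 1.98 ± 0.47 (SE), with an adjusted p of 0.00811 (edgeR quasi-likelihood test, Benjamini-Hochberg), and the call held with any 1 library left out. *Itgae* overlaps *Haspin* on the opposite strand.

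*Cd7* (ENSMUSG00000025163, chr11:121036747-121039418, minus strand) is an immunoglobulin-family receptor of T and NK cells. Its level was 40.4, 13.4, 13.8 and 24.0 CPM in SI1 to SI4 and 1.55, 2.36, 2.46 and 9.78 CPM in COL1 to COL4. The tissues did not overlap. Its log2 fold change was 2.49 ± 0.61 (SE), with an adjusted p of 0.00984 (edgeR quasi-likelihood test, Benjamini-Hochberg), and was called with any 1 library left out. Of the 50-base stretches of its longest transcript, 8.04% also occur in the antisense gene Gm11775.

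*Cd160* (ENSMUSG00000038304, chr3:96798763-96829351, minus strand) is a receptor of cytotoxic lymphocytes that binds HVEM. It was the scarcest member in CPM, with 7.93, 2.24, 3.50 and 7.37 CPM in SI1 to SI4 and 0.880, 1.55, 1.58 and 3.27 CPM in COL1 to COL4. COL4 lay above SI2 and just under SI3. The log2 fold change of 1.52 ± 0.55 (SE) missed the threshold with an adjusted p of 0.0598 (edgeR quasi-likelihood test, Benjamini-Hochberg), and passed it without SI2 (0.0295) or COL4 (0.0329). *Cd160* overlaps *Pdzk1* on the opposite strand, and 0.748% of its 50-base stretches are shared with it.

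Of the members, 4 (*Cd8a*, *Gzma*, *Gzmb* and *Cd7*) had every SI library above every COL library, which held for 17.8% of all genes tested. The other 6 overlapped through COL4. With a block by donor mouse 9 of 10 members were called higher in SI (15.3% of all genes), and without COL4 all 10 were (13.8%). The number called fell to 5 without SI1 (12.0% of all genes), COL1 (11.6%) or COL3 (13.9%), and rose to 10 without SI2 (14.7%). It was 8 without both libraries of mouse 5 (9.30%) and 4 with scaling to pan-epithelial markers (8.18%). Scaling by library size alone shifted the median of all genes from -0.09 to -0.82 and turned the calls over all genes from 2253 higher in SI and 1863 higher in COL to 1115 and 4788. Under it the members' log2 fold changes were still all positive, from 0.18 for *Ptprc* to 3.66 for *Gzma*, but only *Gzma* and *Gzmb* were called, where 7.69% of all genes were called in that direction and 33.0% in the direction of COL. Relative to the median of all genes, the members' median stood 2.42 higher with TMM and 2.29 higher with library size alone.

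**Figure D2:**
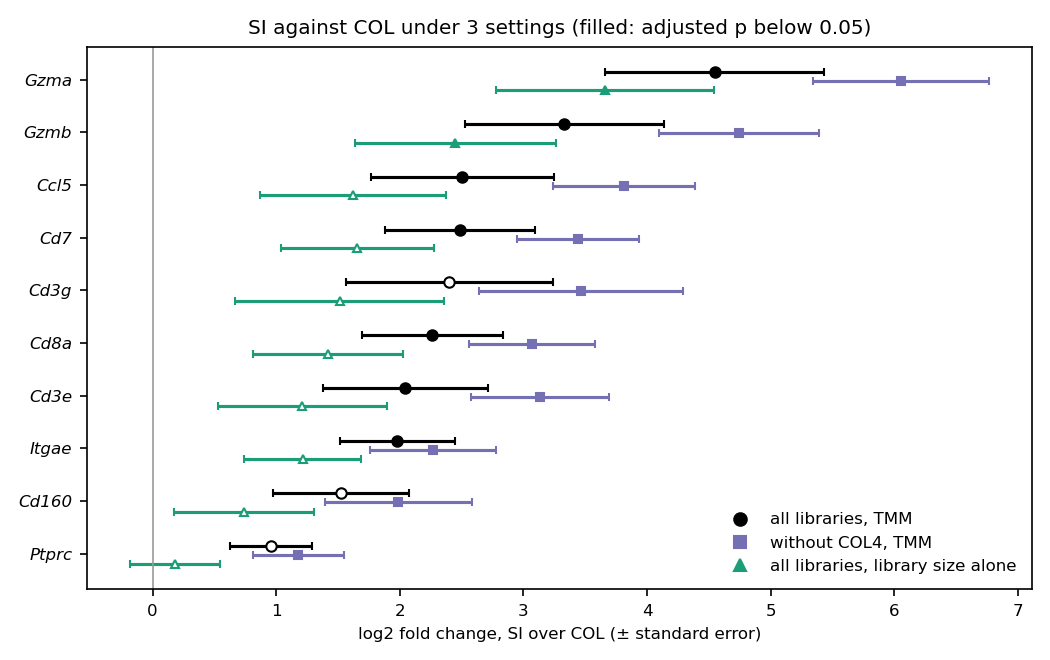
Log2 fold change of SI over COL (± standard error) of the 10 transcripts with all libraries and TMM (circles), without COL4 (squares) and with library size alone (triangles), filled where the adjusted p was below 0.05. All points lie right of 0, and leaving out COL4 moves *Gzma* from 4.55 to 6.05 and *Cd3e* from 2.05 to 3.13.

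The direction held within both levels of mitochondrial share for every member, and the share of all genes for which it did is not given here. The difference of mean log2 CPM between SI and COL was 5.47 among the libraries of high share and 4.88 among those of low share for *Gzma*, and 3.74 and 3.78 for *Gzmb*. For *Cd3e* it was 1.89 and 2.60, for *Itgae* 1.27 and 2.39, and for *Ptprc* 0.56 and 1.32. Each level holds 2 libraries of each tissue, so no test was made. Within mouse 1 the difference was 6.45 for *Gzma* and 3.90 for *Cd3e*, and within mouse 5, which gave COL4, it was 3.19 and 1.17.

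None of the members had a tissue difference that differed between the 2 female and 2 male mice. In edgeR's test of the interaction, with Benjamini-Hochberg adjustment, 0 of 10 members and 0 of 14491 genes (0.00%) passed, while 761 genes and 0 members had an unadjusted p under 0.05. The interactions of the members lay between -0.95 for *Gzma* and 1.08 for *Itgae*, with standard errors of 0.59 to 1.18, so that a difference of 1 log2 unit between the sexes was not detectable.

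Levels of different genes were compared per length of merged exons, as TPM, in which the transcripts of a library sum to 1000000. In SI, *Ccl5* had 215 ± 131 TPM and *Gzma* 183 ± 119 (SD, n = 4). This spread is that between libraries. Within every SI library *Ccl5* was the higher, with more counts over shorter merged exons (960 against 1006 bases), and no test was made. They were followed by *Gzmb* with 51.2 ± 34.9 and *Cd7* with 34.1 ± 19.0 TPM. *Cd3g*, *Cd3e*, *Cd8a*, *Itgae* and *Cd160* lay between 7.82 and 3.39 TPM, and *Ptprc* was the lowest with 1.53 ± 0.54 TPM. The merged exons of *Ptprc* span 18313 bases against 5740 in its longest transcript, which lowers its TPM. In COL the order began with *Ccl5* (72.2 ± 95.8 TPM), *Gzma* (14.9 ± 21.1), *Cd7* (11.0 ± 12.6) and *Gzmb* (9.60 ± 13.2), and the SD exceeded the mean for all 4, with COL4 the highest. The libraries of neighbours in this order overlapped in both tissues, with the exception of *Cd7* and *Cd3g* in SI, where the lowest *Cd7* level lay above the highest of *Cd3g*. Such overlap between libraries does not show the order within a library. *Ccl5* also stood above *Gzma* within every COL library, and *Gzma* above *Gzmb* within every SI library. For other neighbours the order within libraries is not given here.

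The members varied together across libraries. After the tissue means were taken out, the correlation of log2 CPM over 8 libraries had a median of 0.81 over the 45 pairs of members, from 0.48 for *Cd3g* with *Itgae* to 0.99 for *Gzmb* with *Ccl5*. These points share library, depth and scaling, and COL4 is an extreme point among them. Its mean log2 CPM of the members was 3.35, against 0.88 to 1.46 in COL1 to COL3. No correlation was computed without COL4, and pairs of other genes were not compared. The genes outside the list whose log2 CPM was most like the mean of the members over the 8 libraries, among 12059 genes ranked, were *Tyrobp* (r = 0.99), an adaptor of NK and myeloid receptors, and *Gimap4* (0.99), a GTPase of lymphocytes. *Trbc2* (0.98), a T cell receptor beta constant region, *Esco1* (0.98), a cohesin acetyltransferase, and *Nkg7* (0.98), a cytotoxic granule protein, came next. On deviations from the tissue means the first 5 were *Epha2* (0.99), *Zswim5* (0.97), *Trbc2* (0.97), *Esco1* (0.96) and *Tyrobp* (0.96).

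Ratios within a library do not depend on its scaling, and *Cd3e* served as reference for the T cells present. *Gzma* had 6.75, 7.44, 5.30 and 4.90 counts for each count of *Cd3e* in SI1 to SI4, and 1.15, 0.209, 1.17 and 1.21 in COL1 to COL4. For *Gzmb* the ratios were 2.70, 2.24, 2.35 and 2.06 in SI and 1.15, 0.326, 0.985 and 1.09 in COL. The tissues did not overlap for either, COL4 lay with COL1 and COL3, and COL2 was low. The ratio was higher in SI in 4 of 4 mice for both.

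On the log2 scale (CPM + 0.1), the *Gzma* ratio averaged 2.58 ± 0.28 over the SI libraries and -0.35 ± 1.15 over the COL libraries (SD, n = 4), a difference of 2.93. The *Gzmb* ratio was 1.21 ± 0.17 and -0.30 ± 0.81, a difference of 1.52. Both gave p = 0.0286 in a two-sided exact permutation test, the smallest that 4 against 4 libraries allow, and 0.129 after Benjamini-Hochberg adjustment over the 9 ratios, so that neither passed. Without COL2 the differences were 2.35 and 1.11.

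The other 7 ratios overlapped between the tissues. *Ptprc* had 0.789, 1.82, 1.10 and 0.723 counts for each of *Cd3e* in SI1 to SI4, and 4.45, 3.02, 3.26 and 1.07 in COL1 to COL4. Its log2 ratio was 1.30 lower in SI, and lower in SI in 4 of 4 mice, with an exact permutation p of 0.0857 (adjusted 0.154). COL4 was the COL library whose ratio came near to SI. The *Cd160* ratio was 0.80 lower in SI, also in 4 of 4 mice (exact permutation p = 0.0857, adjusted 0.154), and the *Ccl5* ratio was 0.74 higher in 4 of 4 mice (p = 0.0571, adjusted 0.154). Without COL2 the *Ccl5* difference was 0.33. The *Cd7*, *Cd8a*, *Cd3g* and *Itgae* ratios differed by 0.45, 0.22, 0.57 and -0.42, and that of *Cd3g* turned to -0.21 without COL2.

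**Figure D3:**
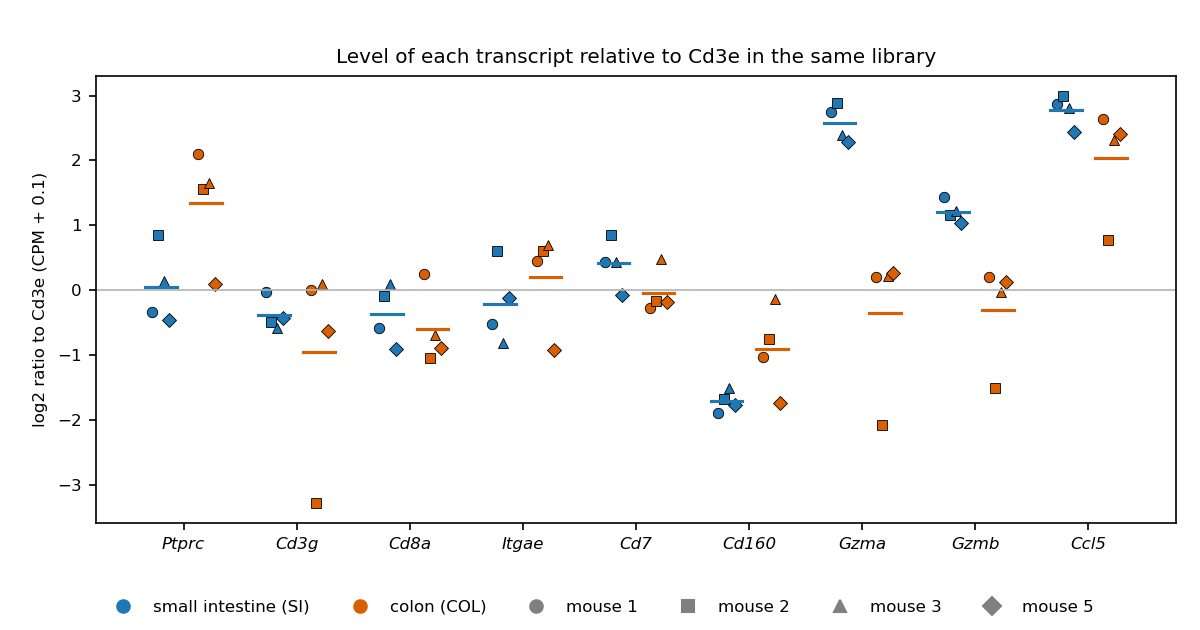
Log2 ratio of each transcript to *Cd3e* in the same library (CPM + 0.1), with SI in blue, COL in orange, a symbol for each donor mouse and a bar at the mean of 4 libraries. The SI and COL points are apart for *Gzma* and *Gzmb*, and COL2 (square) is the lowest COL point for *Cd3g*, *Cd8a*, *Gzma*, *Gzmb* and *Ccl5*.

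Of 9 other genes of the T cell receptor complex, 4 were called higher in SI and 0 in COL, with a median log2 fold change of 1.99. Blocking by donor mouse gave 7 calls, leaving out COL4 gave 8 and leaving out SI1 gave 2 (3 to 5 for the other libraries). With library size alone 2 were called, at a median of 1.17. *Trdc*, the constant region of the delta chain, had 5.39, 2.36, 2.58 and 2.20 CPM in SI1 to SI4 and 0.499, 0.435, 0.267 and 0.880 CPM in COL1 to COL4 and rose by 2.57 ± 0.59 (SE, log2). The gamma constant region *Trgc2* rose by 2.17 ± 0.44, and both were called with any 1 library left out. *Trgc1* rose by 2.53 ± 0.67 (adjusted p = 0.0517 without SI1). *Trac*, the alpha constant region, rose by 1.99 ± 0.63 (adjusted p = 0.0351), and its call was lost without any 1 library other than SI2 and COL4, up to 0.101. *Cd3d* (2.07 ± 0.88, adjusted p = 0.0997) and *Trbc2* (1.58 ± 0.59, 0.0665) missed the threshold and passed it with the donor block (0.0299 and 0.0326) or without COL4 (0.0441 and 0.00563). Adjusted p-values of this and the following lists come from the same edgeR fit and adjustment as those above. Over all genes tested, 15.5% were called higher in SI and 12.9% higher in COL. With library size alone these shares were 7.69% and 33.0%. The share higher in SI was 15.3% with the donor block, 13.8% without COL4 and 12.0% without SI1. The constant regions of 1 chain type are similar in sequence, and how reads were split between them is uncertain.

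Of 20 co-receptor and signalling genes, 14 passed the filter and 3 were called higher in SI (5 without COL4), with a median log2 fold change of 1.08. The 3 of 14 stood near the 15.5% of all genes tested that were called higher in SI. Scaled by library size alone, edgeR called 0 of them, with 2 at an unadjusted p under 0.05 and a median of 0.34. Neither limma-voom nor DESeq2 was run with that scaling. With TMM, limma-voom called 5, and DESeq2, with its own scaling, called 4 of 13. The share of all genes called by these tools is not given here. *Zap70*, the kinase recruited by the CD3 chains, rose by 2.04 ± 0.53 and *Cd244a*, a receptor of NK and CD8 T cells, by 2.09 ± 0.53, both with any 1 library left out. *Cd96* rose by 2.04 ± 0.68 (adjusted p = 0.0425), and its call was lost without SI1, SI4, COL1 or COL3, up to 0.110. *Fyb* (0.26 ± 0.35) and *Lck* (0.53 ± 0.40), the most abundant of those not called, had 14.9 and 12.6 CPM in SI and 12.4 and 8.76 CPM in COL. *Cd8b1*, the beta chain of CD8, had 1.16 ± 0.82 CPM in SI and 0.497 ± 0.540 in COL (log2 fold change 1.20 ± 0.91, adjusted p = 0.356). Per length it stood at 1.31 TPM in SI, against 5.92 TPM for *Cd8a*. *Cd4*, of helper T cells, did not pass the filter, with 5 to 36 counts in the SI libraries and 0 to 9 in COL. *Cd2* did not pass it either and went the other way, with 0 to 3 counts in SI and 3 to 68 in COL. It was higher in SI in 0 of 4 mice. The tested genes of this list with a negative log2 fold change were *Cd27* (-0.48 ± 0.93) and *Txk* (-0.15 ± 0.85), neither called. These 3 genes were named after their values were seen.

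Among 19 cytotoxic and NK-receptor genes, 12 passed the filter and 4 were called higher in SI, with a median log2 fold change of 1.46. Of all genes tested, 15.5% were called higher in SI. Without COL4 the count was 6, without SI4, COL1 or COL3 it was 2, and without SI1 it was 0 in edgeR, with 4 genes at an unadjusted p under 0.05. With library size alone the count was also 0, with 2 genes at an unadjusted p under 0.05 and a median of 0.74. With TMM, limma-voom called 5, and DESeq2, with its own scaling, called 4. *Fasl*, the death ligand, rose by 2.97 ± 0.86 (adjusted p up to 0.0757 without SI1, COL1 or COL3), and *Klrd1* (CD94) by 2.36 ± 0.76 (up to 0.111 without SI1, SI3, SI4, COL1 or COL3). *Fcer1g*, an adaptor chain, rose by 2.23 ± 0.62 (0.0551 without SI1). *Nkg7* had 20.9 ± 12.6 CPM in SI and 4.44 ± 5.40 in COL and rose by 2.22 ± 0.75 (up to 0.129 without SI1, SI4, COL1, COL2 or COL3). *Ctsw* (1.18 ± 0.55, adjusted p = 0.131) and *Serpinb9* (0.36 ± 0.45, 0.596) were not called. The tested genes with a negative log2 fold change, named after their values were seen, were *Xcl1* (-0.73 ± 0.78) and *Gzmm* (-0.26 ± 0.85), neither called.

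Homing, residency and cytokine receptors followed, with 6 of 14 tested genes called higher in SI (15.5% of all genes) and a median log2 fold change of 1.70. The count was 7 without COL4, 3 without SI2 or SI4, 2 without SI1, COL1 or COL3, and 2 with library size alone (median 0.88). *Itgb7*, the partner chain of *Itgae*, had 4.90 ± 2.34 CPM in SI and 1.23 ± 1.05 in COL and rose by 1.97 ± 0.62 (adjusted p up to 0.0982 without SI1, SI2, COL1, COL2 or COL3). *Ccr9*, the receptor for the gut chemokine CCL25, rose by 1.70 ± 0.54 (adjusted p = 0.0355), with 0.0602 under the donor block and up to 0.115 without SI1, SI4, COL1, COL3 or COL4. *Gpr55* (3.67 ± 0.76), a lipid receptor, and *Jaml* (1.88 ± 0.43), an adhesion molecule that binds CXADR on epithelial cells, were called with any 1 library left out. *Il2rb*, the beta chain shared by the receptors for interleukin-2 and interleukin-15, rose by 1.78 ± 0.61 (adjusted p = 0.0476), and only without COL2 or COL4 did a fit with 1 library fewer keep that call, with others up to 0.124. *Itgb2* (1.71 ± 0.96) passed the threshold without COL4 alone (0.0247), and *Cxcr6* (1.68 ± 0.80) was not called.

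Lymphocyte transcription factors were mixed. Of 12 tested, 4 were called higher in SI (1 without COL1, and 2 without SI1, SI4 or COL3) and 1 higher in COL, with a median of 0.91. Over all genes the shares called were 15.5% and 12.9%. With library size alone 1 was called in each direction, at a median of 0.15, where 7.69% and 33.0% of all genes were. *Id2* (1.66 ± 0.41), which NK cells and memory T cells need, rose with any 1 library left out. *Prdm1* rose by 2.08 ± 0.60 (up to 0.0670 without SI1, SI4, COL1, COL3 or COL4) and *Ikzf3* by 1.88 ± 0.65 (0.0531 with the donor block, and up to 0.163 without SI1, SI4, COL1, COL2 or COL3). Epithelial cells can express *Id2* and *Prdm1*. *Bcl11b* (0.19 ± 0.40) and *Ahr* (0.74 ± 0.46) were not called. *Eomes*, named after its values were seen because it was the gene called higher in COL, had 0 counts in all SI libraries and 12 to 28 in each COL library, at least 14.4-fold higher in COL against a floor of 3 counts over the SI group.

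The epithelial genes that these receptors bind differed in part. Of 15 partner genes, 7 were called higher in SI and 1 in COL, with a median of 1.14 (6 and 1 with library size alone, at a median of 0.44). Among all genes, 15.5% and 12.9% were called in these directions (7.69% and 33.0% with library size alone). *Cdh1*, the E-cadherin bound by *Itgae*, had 668, 561, 524 and 839 CPM in SI1 to SI4 and 463, 589, 733 and 821 CPM in COL1 to COL4, a log2 fold change of -0.01 ± 0.35 (adjusted p = 0.990). The tissues overlapped fully. *Ccl25*, the ligand of *Ccr9*, had 1022 to 1668 CPM in SI and 6.37 to 12.0 CPM in COL and rose by 7.29 ± 0.48 (adjusted p = 6.51e-06).

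The butyrophilin-like genes, whose products shape gamma-delta intraepithelial T cells, also stood higher in SI. *Btnl1* rose by 3.57 ± 0.62, *Btnl2* by 5.69 ± 0.50 and *Btnl6* by 3.55 ± 0.60. *Btnl1* had 637 to 1198 CPM in SI and 27.4 to 148 CPM in COL. The other genes called, outside the limit of 4 set for naming and added after their values were seen, were *H2-T3* (3.02 ± 0.45), whose product is the ligand of the CD8 alpha-alpha dimer, *Btnl4* (1.81 ± 0.44) and *Il15* (1.84 ± 0.38). *Il15* had 26.0 to 53.1 CPM in SI and 5.98 to 19.4 CPM in COL. All 7 were called with any 1 library left out, and *Btnl4* and *Btnl6* are similar enough that reads shared between them are uncertain.

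*Raet1e*, a ligand of the NKG2D receptor, was the partner called higher in COL. It had 1 count over the SI libraries and 540 over COL, a ratio of 320 with a 95% counting interval of 57.2 to 12664. *Tnfrsf14*, the HVEM bound by *Cd160*, had 4.38 ± 1.12 CPM in SI and 2.78 ± 1.20 in COL (0.66 ± 0.43, adjusted p = 0.283), and *Cxadr* had 171 ± 41.9 and 158 ± 51.0 CPM (0.12 ± 0.33, adjusted p = 0.825).

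**Figure D4:**
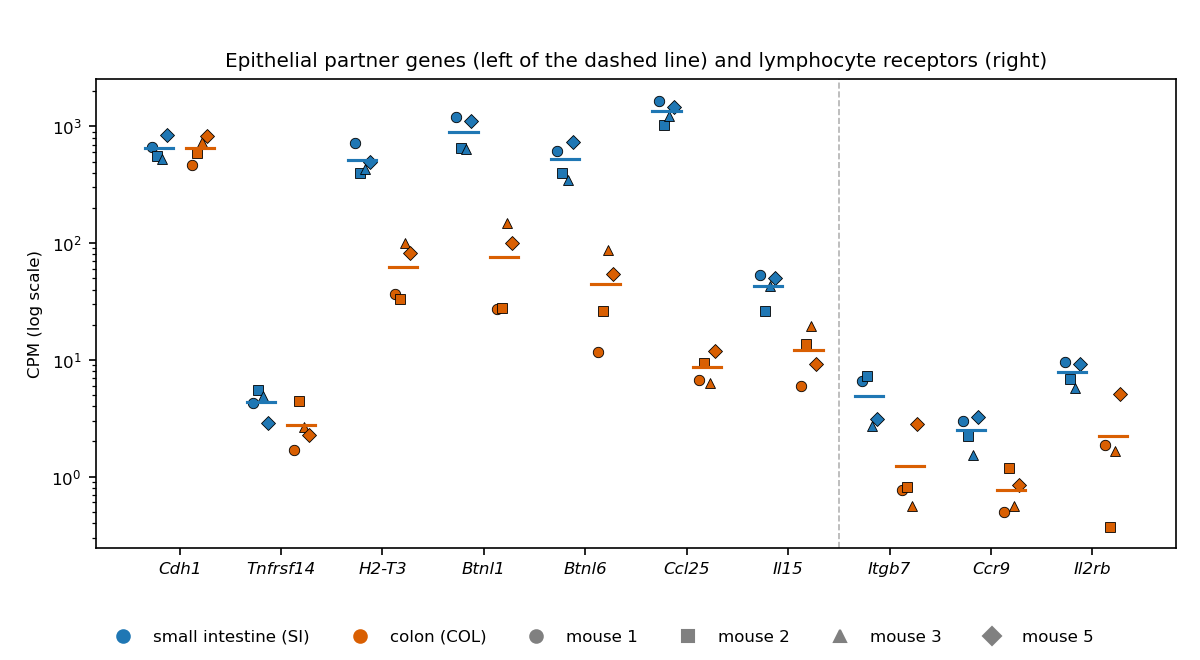
CPM (log axis) of epithelial genes that bind or act on intraepithelial lymphocytes (left of the dashed line) and of 3 lymphocyte receptors (right), with SI in blue, COL in orange, a symbol for each donor mouse and a bar at the mean. *Cdh1* overlaps between the tissues, whereas *Ccl25* lies at 1022 to 1668 CPM in SI and at most 12.0 CPM in COL.

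Markers of other cell types that a crypt preparation can hold did not follow a single direction. The 10 lymphocyte transcripts summed to 191 to 672 CPM in SI, 26.3 to 36.5 CPM in COL1 to COL3 and 140 CPM in COL4. The 12 B and plasma cell markers summed to 52.3 to 99.3 CPM in SI, 10.5 to 17.7 CPM in COL1 to COL3 and 88.2 CPM in COL4, with 0 of 6 tested called in either direction by edgeR. In SI, 2 had an unadjusted p under 0.05, limma-voom called 2 and DESeq2 0 of 4, and edgeR called 2 with the donor block and 3 without COL4. *Igha* and *Igkc*, antibody chains of plasma cells, made up most of this sum. Their log2 fold changes were 0.63 ± 0.61 (adjusted p = 0.473, 0.0102 without COL4) and 1.60 ± 0.70 (adjusted p = 0.111, 8.89e-05 without COL4). The 7 markers of naive, regulatory or follicular lymphocytes did not reach the filter, with at most 23 counts of any gene in a library.

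Myeloid and mast cell markers summed to 24.8 to 35.6 CPM in SI, 36.9 to 56.9 CPM in COL1 to COL3 and 93.5 CPM in COL4. *Cd14*, which epithelial cells can also express, fell by 2.56 on the log2 scale and gave most of the COL sum, whereas *Itgam* (2.45 ± 0.47), an integrin chain of myeloid and NK cells, and *Tyrobp* (2.16 ± 0.65; up to 0.0842 without SI1, SI4, COL1 or COL3) rose. The macrophage genes *Lyz2* and *Cd68* had 2.53 and 1.38 CPM in SI and 2.51 and 2.32 CPM in COL and were not called. *S100a8* and *S100a9*, of neutrophils, had 0 counts in all SI libraries, but did not pass the filter, so no difference from COL was tested. Red blood cell markers summed to 0.137 to 1.57 CPM in SI and 4.04 to 40.0 CPM in COL, with the highest value in COL4, and 3 of 4 tested were called higher in COL (2 without COL4). *Hbb-bs*, *Hba-a1* and *Hbb-bt*, globin genes whose near copies can share reads, differed by -5.87 ± 0.89, -5.49 ± 0.83 and -4.12 ± 1.18, the last not called without SI3, COL1 or COL4, and *Alas2* was not called. Stromal, endothelial and muscle markers summed to 4.07 to 19.9 CPM in SI and 6.57 to 20.4 CPM in COL. Of 8 tested, 1, *Pecam1*, was called higher in COL, with an adjusted p up to 0.0668 without SI3, SI4 or COL2. That 1 of 8 is near the 12.9% of all genes called higher in COL. *Vim* and *Dcn* of mesenchymal cells had 3.98 and 0.691 CPM in SI and 5.47 and 1.11 CPM in COL and were not called.

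**Figure D5:**
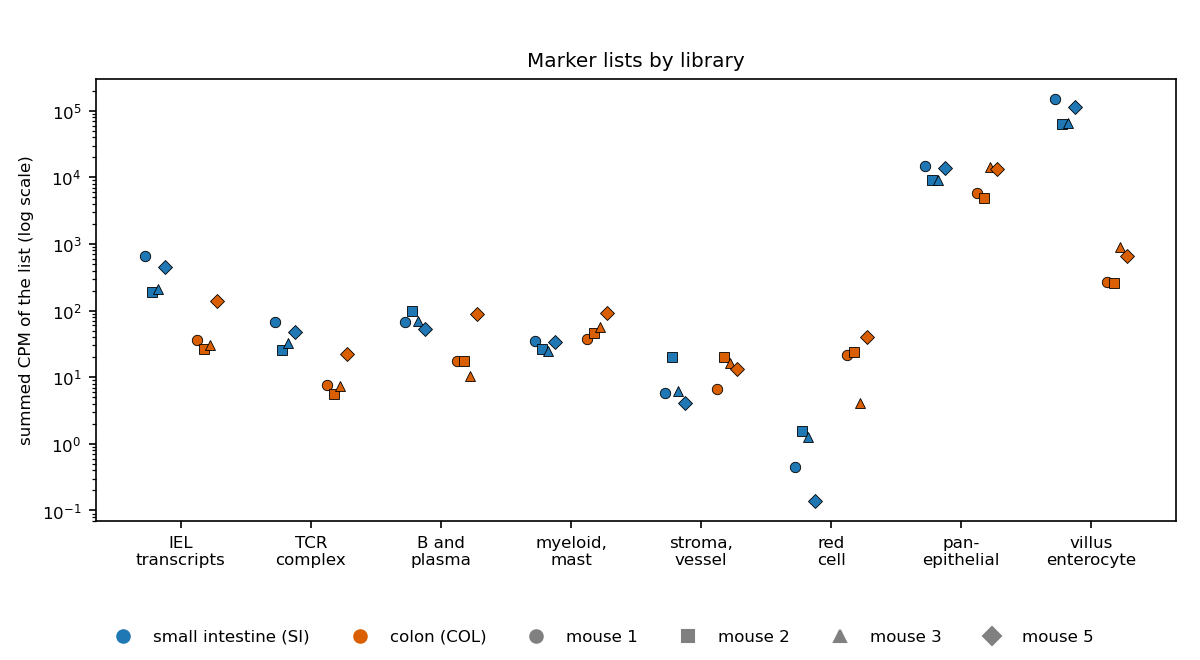
Summed CPM (log axis) of marker lists in each library, with SI in blue, COL in orange and a symbol for each donor mouse. COL4 (diamond) lies above the other COL libraries for the lymphocyte, T cell receptor, B and plasma cell, myeloid and red cell lists, at 140 against 26.3 to 36.5 CPM for the lymphocyte transcripts.

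Epithelial markers moved with the lymphocyte transcripts in part. The 9 pan-epithelial markers had a median log2 fold change of -0.01, with a range of -2.09 to 3.25 and 2 called in each direction. Of all genes, 15.5% were called higher in SI and 12.9% in COL. The same 9 markers were the reference of the pan-epithelial scaling, so that reference itself held genes that differed between the tissues. The 10 villus enterocyte markers were all called higher in SI, with a median log2 fold change of 9.77. They summed to 148688 CPM in SI1, 62530 in SI2, 65018 in SI3 and 113967 in SI4, and to 258 to 887 CPM in COL. The order of the SI libraries by this sum, SI1, SI4, SI3 and SI2, was the same as by the lymphocyte sum of 672, 191, 212 and 445 CPM. In that order the mitochondrial share rose, at 4.84, 7.35, 22.7 and 28.3%, and the females came before the males. The pan-epithelial sum also set SI1 and SI4 (14839 and 13662 CPM) above SI2 and SI3 (9280 and 9103 CPM). These features of 4 libraries cannot be told apart. In COL4 the lymphocyte sum reached 36.9% of the SI mean. The villus sum of COL4 was 0.682% of its SI mean, and it was low in every COL library. It therefore gives no measure of where the lymphocytes of COL4 lay. The part of villus epithelium and of other blood cells in the difference of the lymphocyte transcripts was not tested.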

How the data were processed

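RNA-Seq of 8 crypt libraries was analysed, 4 from SI and 4 from COL. Per the labels and methods, the authors sequenced RNA on a HiSeq 4000, trimmed reads with Trimmomatic 0.36 and aligned them to mm10 with STAR 2.5.2b, which also counted reads per gene. They deposited whole-number counts for 45706 Ensembl genes without normalization. The submitters' notes list mm9 beside mm10, and the annotation release and the strand setting of the counts are not given in the sources used here. GENCODE vM21 (GRCm38) supplied symbols and coordinates for 45143 of these genes.

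SI was compared with COL by edgeR 4.0.16's quasi-likelihood test (R 4.3.3) with TMM, after filterByExpr with tissue as group (about 10 counts in a median library in 4 libraries, and 15 in all), with Benjamini-Hochberg adjustment over all genes tested and a threshold of 0.05. Standard errors came from the coefficient and F statistic. CPM used TMM-scaled library sizes. TPM divided counts by merged exon length. Ratios to *Cd3e* used an offset of 0.1 CPM and two-sided exact permutation tests over 70 assignments. The mitochondrial levels were split at the largest gap that left 2 libraries of each tissue on both sides, because the largest gap of all set COL2 apart alone. The chance of a read fitting another gene was checked with 50-base stretches of the longest transcript. Counting intervals cover counting error only, and the spread between mice limits precision.

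SI and COL libraries of 1 donor number come from the same animal. The deviations from the tissue means correlated by -0.25, 0.40, -0.08 and 0.34 in mice 1, 2, 3 and 5, against a mean of -0.03 for other pairs. The fit without a donor term was the main one, since the study's methods name none, and a fit blocked by donor mouse was an alternative. Replicates of 1 tissue differed by more than sampling noise. Alternatives were other scalings, filters and covariates, limma 3.58.1 (voom), DESeq2 1.42.0, and leaving out libraries.

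The members and lists were chosen with earlier results of these data known. Named from each list were up to 4 called genes in each direction, by largest change and with at least 1 CPM in either tissue, up to 2 abundant genes not called, and *Cd8b1*, *Cd4*, *Trac*, *Trdc*, *Cd3d*, *Itgb7*, *Ccr9*, *Cdh1*, *Ccl25* and *Tnfrsf14*. The called genes of the pan-epithelial and villus enterocyte lists were not named, and those lists are given as sums, medians and counts. A gene that this rule would name is not reported here. Likeness was the Pearson correlation with the mean of the members. Sequences came from RefSeq (GRCm38.p6). No protein sequences were used here.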

Additional observations from a re-analysis of the deposited data

Results flagged for a closer look

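In 4 of the 66 groups of 4 libraries that were checked, 1 library stood apart from the others by Dixon's criterion, and chance marks about 1 in 20 groups. Among the COL libraries, COL2 was the lowest for the log2 ratio of *Gzma* to *Cd3e*, at -2.07, where the other 3 lay between 0.20 and 0.27. It was also the lowest for the ratio of *Gzmb* to *Cd3e*, at -1.51, against -0.02 to 0.20 in the others. These ratios rest on 9 counts of *Gzma*, 14 of *Gzmb* and 43 of *Cd3e* in COL2, the library with the fewest counts and the highest mitochondrial share. COL4 was the lowest for the ratio of *Itgae* to *Cd3e*, at -0.92, against 0.45 to 0.70 in COL1 to COL3. COL3 was the highest for the ratio of *Cd7* to *Cd3e*, at 0.48, against -0.28 to -0.17 in the others.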

How the results depend on the processing

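The log2 fold changes of all 10 members stayed positive under every alternative run, and *Gzma* and *Gzmb* were called under all of theirs. The members called higher in SI numbered 7, against 2 with library size alone and 4 when scaled to the pan-epithelial markers. They numbered 5 to 10 with 1 library left out and 8 without both libraries of mouse 5, an alternative chosen after seeing the data. Genes of the 6 lymphocyte and partner lists called higher in SI numbered 28 of 76 tested, where 15.5% of all genes were. With library size alone they numbered 11 (7.69% of all genes), with the epithelial scaling 11 (8.18%), and 15 to 37 with 1 library left out. Those called higher in COL numbered 2, *Eomes* and *Raet1e*, which had 0 and 1 counts over the SI libraries. The stricter filter, 10 counts or more in each library, removed both before testing. Its 0 calls higher in COL, among 39 genes tested, therefore cannot show whether these 2 calls depend on the processing. Genes of the other cell-type lists called higher in COL numbered 7 of 45 tested, near the 12.9% of all genes. They numbered 3 of 25 tested with that filter, 4 of 45 without mouse 5 and 6 to 10 with 1 library left out. Those called higher in SI numbered 14 of 45 (15.5% of all genes), of which 10 were villus enterocyte markers, and 10 to 17 under the alternatives. With the replicate block by donor mouse, 9 members and 30 genes of the lymphocyte and partner lists were called higher in SI. The block changed the calls of *Ptprc* and *Cd3g* and of no other member. The ratio of *Cd3g* to *Cd3e* turned from 0.57 to -0.21 without COL2, with a range of -0.21 to 0.92 over the libraries left out. With *Ptprc* as reference, the ratio of *Itgae* turned from -0.42 to 0.88 and that of *Cd160* from -0.80 to 0.50. The cause was not tested. Within mice, the exact sign-flip test of the ratios cannot give a p below 0.125. Depth limits *Cd3g*, *Gzma* and *Gzmb* in COL2 and most genes of the naive lymphocyte list.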
